A study of Schizosaccharomyces pombe with 2 samples.

Results

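The genes described here are those of fission yeast, Schizosaccharomyces pombe, whose name in the platform annotation is mug or meu followed by digits. The annotation gave 133 such genes, 115 mug and 18 meu, each with 1 probe set, among 2896 S. pombe genes named there with a probe set of their own. Another 5177 probe sets carry no gene name and were left out. All genes and other genes below therefore mean the named S. pombe genes. The rule reads the name and uses no signal. RNA was measured on 2 Affymetrix Yeast Genome 2.0 arrays, with 1 array per group. One carried RNA of cells kept for 2 h with DETA NONOate at 0.5 mM, a slow donor of nitric oxide, and the other RNA of untreated cells. Both cultures grew in YES, a rich medium, at 30 °C, and the labels place them in the middle of logarithmic growth. The labels name no strain, mating type or time for the untreated culture. There was no array for a spent donor, so the gas and the remainder of the molecule cannot be told apart.

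The names mug (meiotically upregulated gene) and meu (meiotic expression upregulated) were given to transcripts that become more abundant when fission yeast cells starve, mate and pass through meiosis into spores. In growing cells many such transcripts are kept scarce, since their activators Ste11 and Mei4 are inactive or absent and the RNA-binding protein Mmi1 directs a group of meiotic messages to decay. The names record a pattern of expression and no common function. Some of these genes were later found to act in meiosis or spore building, others in autophagy, metabolism or chromatin, and many have no described role. No array here held meiotic cells, so the pattern behind the names could not be checked.

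Signals are linear intensities, 1 per probe set, scaled by array to a 2% trimmed mean of 500.32 with DETA NONOate and 500.29 without. The background was the 95th percentile of the 2601 probe sets that the annotation assigns to budding yeast, Saccharomyces cerevisiae, whose intended transcripts are absent from these cells. It lay at a signal of 8.76 on the DETA NONOate array and 7.99 on the untreated array. The highest of these probe sets had 60.6 with DETA NONOate and 72.6 untreated, and whether some bind S. pombe transcripts was not tested. A gene was called measured when it passed the background on at least 1 array. With 1 array per group, differences are given as folds without p-values or replicate errors, and the precision is limited by the number of arrays. The 35 added control probe sets with a signal of 100 or more had log2 ratios from −0.31 to 0.42. That range covers labelling and hybridization of bright probe sets and leaves out differences between cultures. Fewer cells with a transcript and less of it per cell cannot be told apart in RNA of whole cultures.

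Many of these genes gave a low signal in growing cells. Of the 133 genes, 125 passed the background on both arrays, 5 on 1 array and 3 on neither. The last count depends on where background is set: it was 9 at the 99th percentile and 51 at the highest S. cerevisiae probe set. The matching counts over all 2896 genes were 7, 21 and 142. A further 20 passed it on both arrays but stayed under 4 times its level, which is a signal of 35.1 with DETA NONOate and 32.0 untreated. Thus 28 mug and meu genes (21.1%) lay at or near background, against 51 of the 2763 other S. pombe genes (1.85%). They made up 35.4% of all 79 genes at or near background, and 4.59% of all genes. A signal under 100 on both arrays was found for 56 of them (42.1%) and for 129 of the other genes (4.67%). Only 14 reached 1000 on an array. Signal also depends on the probes, so these counts describe detection on this array and set no gene's transcript level against another's. The other genes are those named in the annotation, and whether unnamed genes had a like signal was not tested.

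**Figure D1:**
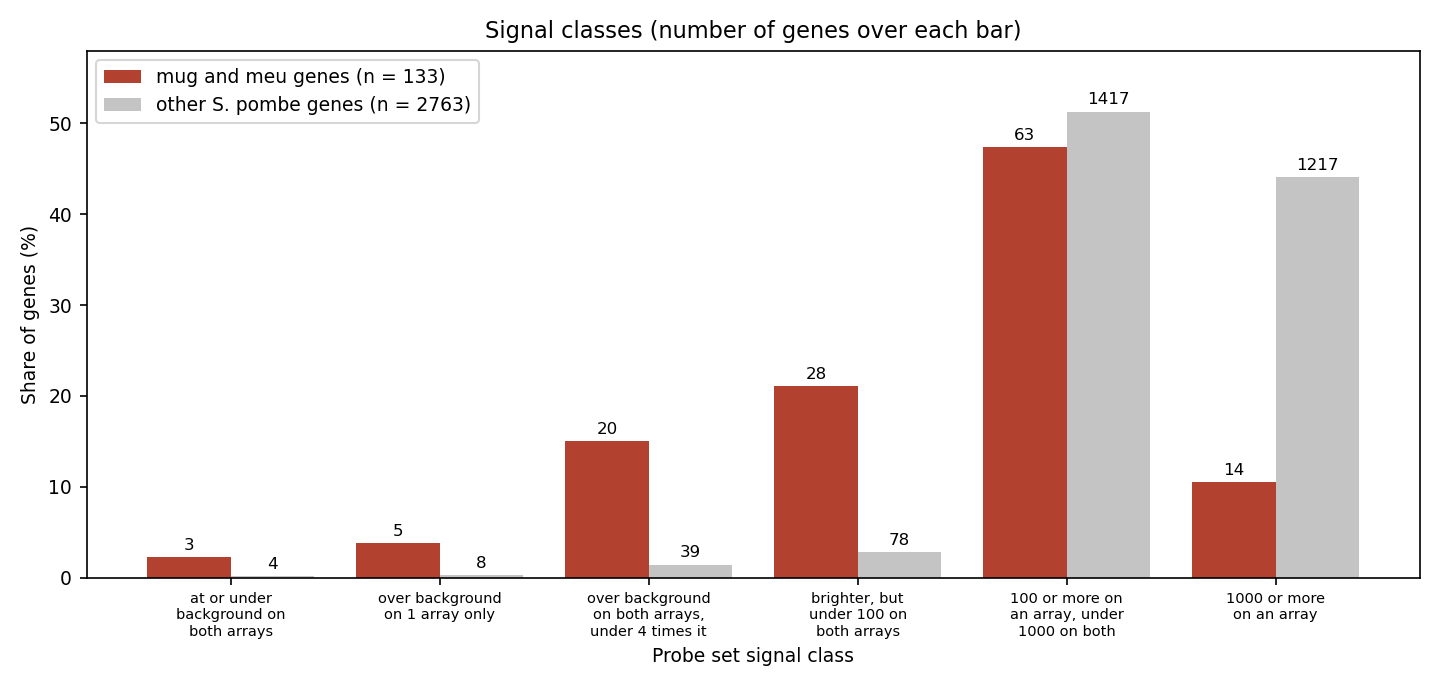
Share of genes (vertical axis, percent) in 6 classes of probe set signal, from at or under background to 1000 or more, for the 133 mug and meu genes (red, left bar) and the 2763 other S. pombe genes (grey, right bar). Numbers over the bars are genes. The mug and meu genes fill the 4 dim classes on the left more often, and 14 of them stand in the brightest class beside 1217 other genes.

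The 3 genes without a signal over background on either array were mug93, mug96 and mug116. The gene mug93 had 1.12 on the DETA NONOate array and 7.49 on the untreated array. The gene mug96 had 4.87 with DETA NONOate and 3.57 untreated, and mug116 had 3.27 with DETA NONOate and 4.01 untreated. No ratio is given for them, because both values lie in the range of probe sets without a target.

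Passing the background on 1 array turned the ratio of 5 genes into a bound. The gene mug68 was at least 1.62-fold lower with DETA NONOate, at 6.15 against 14.2 in untreated cells. The gene mug62 was at least 1.35-fold lower, and mug55, now called fzr3 and related to the Fizzy activators of the anaphase-promoting complex, at least 1.31-fold lower. In the other direction mug28, for an RNA-binding protein of spore formation, had 9.63 with DETA NONOate and 5.91 untreated, or at least 1.2-fold more. The gene meu26 had 8.91 with DETA NONOate and 3.43 untreated, which is at least 1.11-fold higher. These bounds hold only for the background used here. The 99th percentile lay at 15.3 with DETA NONOate and 13.2 untreated. With that background mug62, mug55, mug28 and meu26 are under it on both arrays and have no ratio. The gene mug68 still passes it in untreated cells. Its 14.2 there is below the 15.3 of the DETA NONOate array, so its difference is then no longer bounded.

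The other 20 genes near background were meu13, meu15, meu17, meu27, meu32, mug5, mug20, mug27, mug37, mug42, mug45, mug95, mug103, mug106, mug112, mug114, mug131, mug133, mug137 and mug177. Their signals ran from 8.78 to 29.7 with DETA NONOate and from 8.81 to 31.3 untreated. Their log2 ratios, always DETA NONOate over untreated, had a median of −0.15 and ran from −1.08 for mug177 to 0.65 for mug42. At the dim end, mug137 had 8.78 with DETA NONOate and 8.81 untreated, barely over background on either array.

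Most mug and meu transcripts had a similar signal with and without DETA NONOate. Of the 130 measured genes, 120 had ratios within 2-fold and 104 (80.0%) within 1.5-fold. Over all measured S. pombe genes, 87.7% had ratios within 1.5-fold. Here and below, genes over background on 1 array, 5 of these 130 among them, were counted at the bound and may lie further apart. The median log2 ratio of the 130 genes was 0.05, with quartiles of −0.28 and 0.28. The median over all 2889 measured genes was −0.01. Ratios above 0 were found for 69 of the 130 genes (53.1%) and for 49.2% of all genes. Ratios thus lay on both sides of 0 in nearly equal number.

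At least 2-fold higher with DETA NONOate were 7 of the 130 genes (5.38%), against 2.25% of all measured genes. At least 2-fold lower were 3 of 130 (2.31%), against 2.04% of all genes. The share of lower genes was near that of all genes, and the higher share rests on 7 genes without a replicate check. At 1.5-fold, 16 genes were higher and 10 lower, beside 5.68% and 6.61% of all genes in those directions. At 3-fold, 2 were higher and 1 lower, beside 0.9% and 0.623% of all genes.

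**Figure D2:**
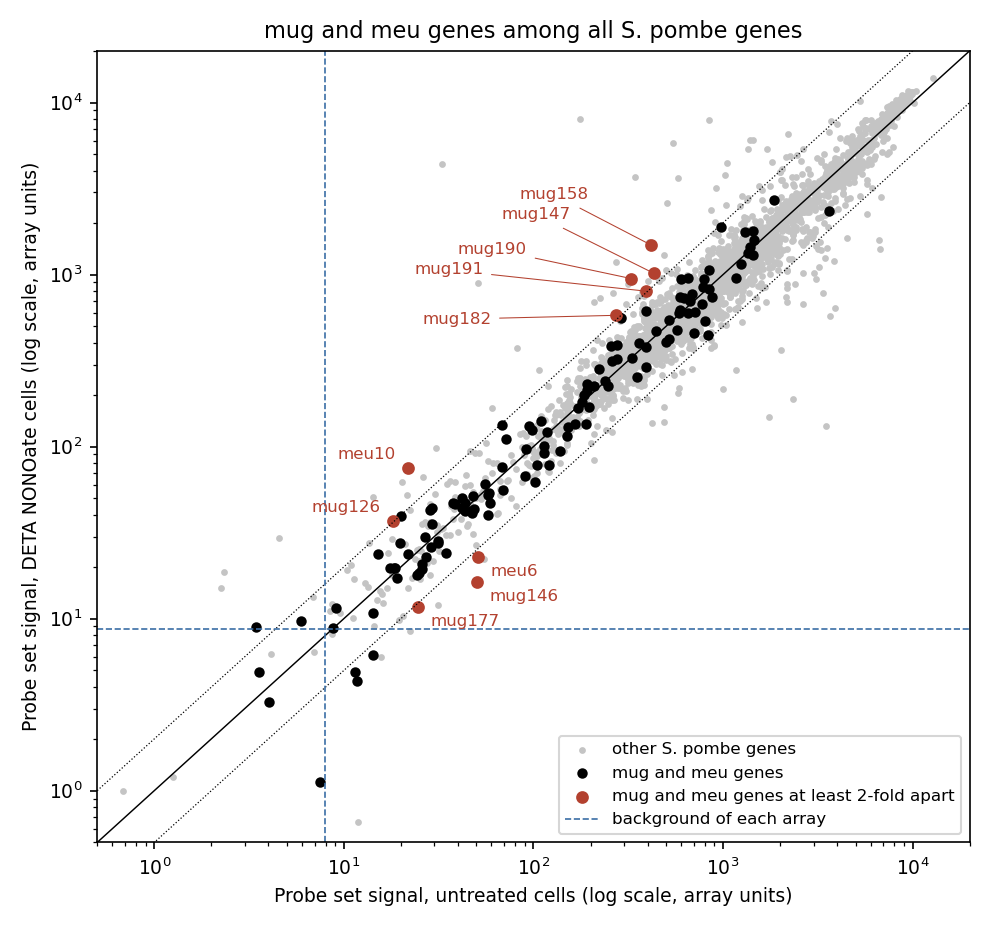
Probe set signal with DETA NONOate (vertical axis) against that of untreated cells (horizontal axis), both in array units on log scales, 1 array each. Black points are mug and meu genes, and grey points the other S. pombe genes. Red points are mug and meu genes at least 2-fold apart after signals were raised to the background. Solid and dotted lines mark equal signals and 2-fold, and dashed lines the background of each array. Of the 7 higher genes 5 reach a signal of 100 or more, while the 3 lower genes lie at 51.1 or less on both arrays.

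The highest ratio among them belonged to mug158, now called egt1 (SPBC1604.01). It encodes the enzyme that starts the synthesis of ergothioneine, a sulphur-containing antioxidant made from histidine. Its signal was 1488 with DETA NONOate and 416 untreated, a 3.58-fold difference and the 18th highest ratio of all 2889 measured genes. The next was meu10 (SPCC1223.12C), for a cell surface protein needed to build the spore wall, with 75.4 with DETA NONOate and 21.8 untreated, or 3.46-fold higher. The gene mug190, now tcb2 (SPCP31B10.06), carries the name of the tricalbins, lipid-binding proteins at contacts between endoplasmic reticulum and plasma membrane. It had 948 with DETA NONOate and 327 untreated and was 2.90-fold higher.

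Another 4 genes lay closer to the 2-fold threshold. The gene mug147 (SPBC56F2.06) had 1016 with DETA NONOate and 432 untreated and was 2.35-fold higher. The gene mug182 (SPAC15A10.05C), predicted to encode an epimerase that repairs damaged NADH and NADPH, had 579.6 with DETA NONOate and 273 untreated and was 2.12-fold higher. These genes were clearly over background on both arrays, as was mug191 (SPAC3C7.05C), which was 2.05-fold higher at 801 with DETA NONOate and 391 untreated. The dim gene mug126 (SPAC4F10.08) had 37.1 with DETA NONOate and 18.2 untreated and was 2.03-fold higher. Its log2 ratio was 1.02, but 0.63 with 16 added to each signal in place of the background floor and 0.93 after quantile normalization, both under the threshold.

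Just under the threshold stood 4 genes with log2 ratios from 0.93 to 0.99. The gene mug97 had 39.6 with DETA NONOate and 20.0 untreated and was 1.98-fold higher. The gene mug98 had 133 and mug108 had 1879 with DETA NONOate, against 68.4 and 981 untreated, for ratios of 1.95-fold and 1.92-fold. The gene mug65 was 1.91-fold higher, with 556 with DETA NONOate and 291 untreated. Below these 11 genes the ratios left a gap, and the next gene, mug186, had a log2 ratio of 0.66. It was followed by mug121 at 0.65, mug42 at 0.65 and mug73 at 0.63.

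**Figure D3:**
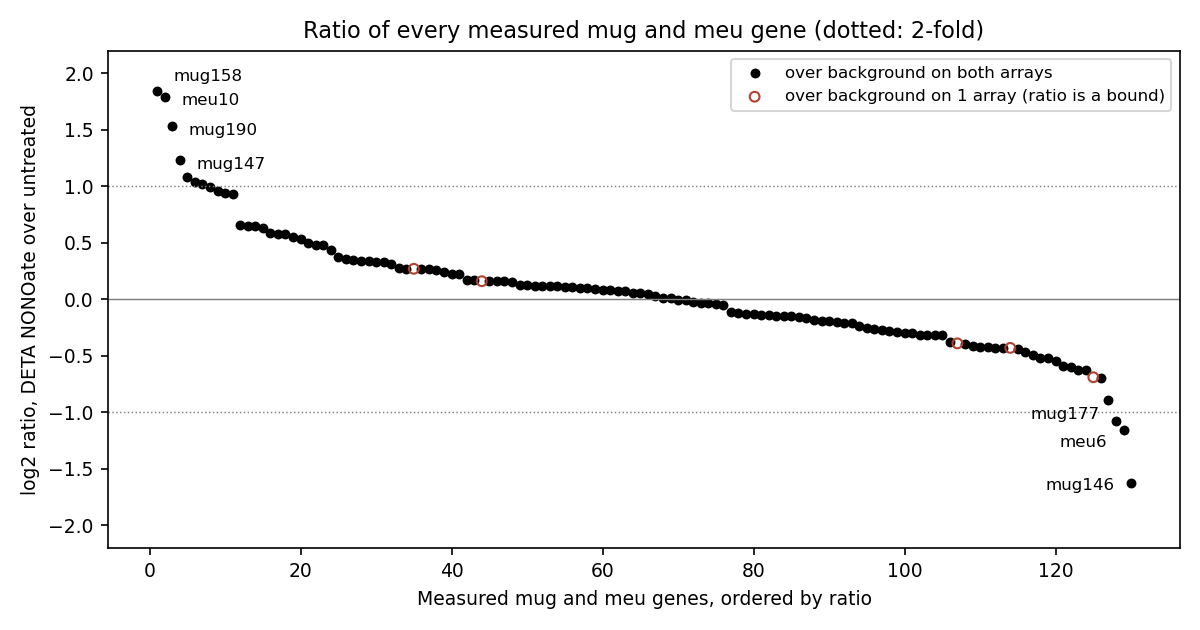
The log2 ratio of DETA NONOate over untreated (vertical axis) for the 130 measured mug and meu genes, ordered from highest to lowest (horizontal axis). Open red circles are the 5 genes over background on 1 array, whose ratio is a bound, and dotted lines mark 2-fold. The 11 highest genes stand apart from the rest at 0.93 and above, and 3 genes lie below the lower line.

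All 3 genes at least 2-fold lower were dim. The gene mug146 (SPCC1235.12C) had 16.4 with DETA NONOate and 50.6 untreated, a 3.09-fold lower signal, the 17th lowest ratio among the 2889 genes. Next, meu6 (SPBC428.07) had 22.85 with DETA NONOate and 51.1 untreated and was 2.24-fold lower. The third was mug177 (SPAC630.15), 2.11-fold lower at 11.7 with DETA NONOate and 24.6 untreated. No role is given here for these 3 genes. The limit of 35.1 was not reached, so all 3 stood under 4 times background with DETA NONOate. With 16 added to each signal and no floor, the log2 ratio of mug146 was −1.04, while those of meu6 (−0.79) and mug177 (−0.55) no longer reached 2-fold. With the background at the 99th percentile, mug177 had −0.69.

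Among brighter genes, the lowest ratio was that of mug14 (SPBC359.06), for a protein of the adducin family, with 446 with DETA NONOate and 828 untreated, or 1.86-fold lower. The gene mug166 was 1.63-fold lower, at 62.5 with DETA NONOate and 102 untreated, and mug15 was 1.55-fold lower. The gene mug64 had the highest untreated signal of all mug and meu genes, 3599, and was 1.54-fold lower at 2332 with DETA NONOate. The genes mug151, mug162 and mug57 were 1.52-fold, 1.51-fold and 1.47-fold lower. The rest of the 15 lowest ratios belonged to mug68, described above, and to mug67 (now sdu1), mug1 (jnm1), mug152 (teb1) and mug86, with log2 ratios between −0.52 and −0.47.

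**Figure D4:**
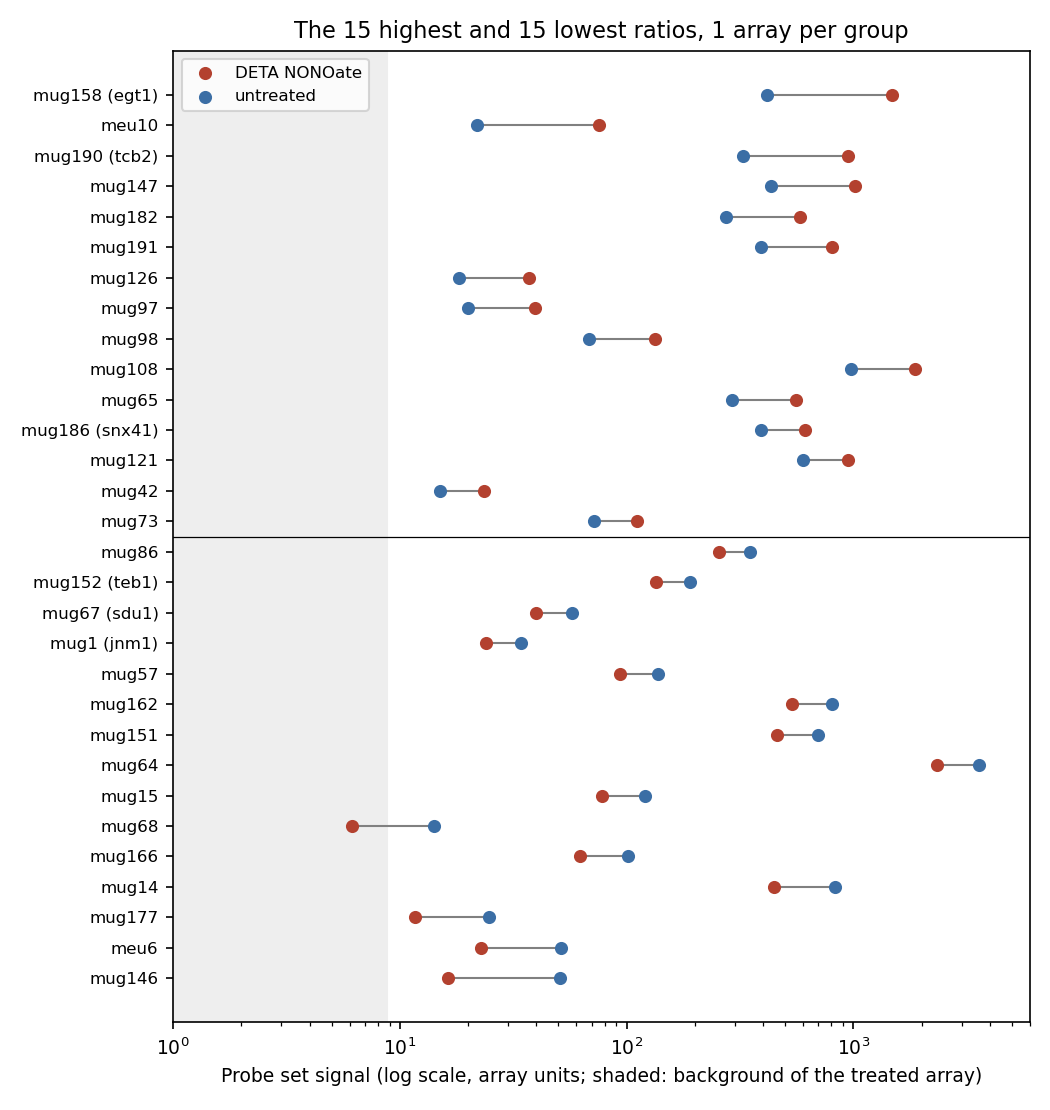
Probe set signal (horizontal axis, array units, log scale) with DETA NONOate (red) and without (blue) for the 15 mug and meu genes with the highest ratios (upper part, highest on top) and the 15 with the lowest (lower part, lowest at the bottom), 1 array per group. The shaded band is the background of the DETA NONOate array. The widest gaps are those of mug158, meu10 and mug190 in the upper part and mug146 in the lower part, and mug68 is the gene that falls into the band.

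Among those with a signal of 100 or more on an array, 5 of 77 were at least 2-fold higher and 0 of 77 lower. The other genes of that brightness had 48 of 2634 higher (1.82%) and 53 of 2634 lower (2.01%). Among measured genes under 100 on both arrays, 2 of 53 mug and meu genes were higher and 3 of 53 lower, while the other genes had 10 and 3 of 125. The median absolute log2 ratio was 0.29 in the bright and 0.27 in the dim mug and meu genes, and 0.20 and 0.36 in the other genes. With 1 array per group these differences between counts were not tested.

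Of the 6 brightest mug and meu genes, none was 2-fold apart. The gene mug161 had the highest signal with DETA NONOate, 2721, against 1855 untreated, a log2 ratio of 0.55. The gene mug33, for a membrane protein at growing cell tips, had 1784 with DETA NONOate and 1436 untreated. The gene mug56 had 1778 with DETA NONOate and 1309 untreated, and mug134, now igo1, had 1592 with DETA NONOate and 1461 untreated. Igo1 is an endosulfine, a small inhibitor of protein phosphatase 2A that acts in the response to nutrients. The remaining bright genes, mug64 and mug108, are given above.

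A role could be stated for 34 of the 133 genes. The roles were assigned with the values known, so the counts by role are descriptions only. Of 4 genes for chromosome pairing, movement or division in meiosis, 3 had log2 ratios below 0. None was shown to be 2-fold apart, and for mug55 only the bound given above is known. The gene meu13, whose product pairs homologous chromosomes, had 27.6 with DETA NONOate and 19.8 untreated, while mug20, for a protein of the linear elements that form along meiotic chromosomes, had 20.7 with DETA NONOate and 25.8 untreated. The gene mug1, for a subunit of the dynein partner dynactin, had 24.0 with DETA NONOate and 34.4 untreated. Of these 4, meu13, mug20 and mug55 lay at or near background, and mug1 was dim, with an untreated signal just over the limit of 32.0.

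Of 4 spore formation genes, meu10 alone was 2-fold higher, beside 2.25% of all measured genes. The gene meu14, for a protein at the leading edge of the membrane that encloses a forming spore, had 43.2 with DETA NONOate and 48.6 untreated. The gene mug27, for a protein kinase that acts on the same membrane, had 19.8 with DETA NONOate and 18.5 untreated. These spore genes stayed within 1.5-fold, and for mug28 only the bound given above is known.

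Genes for autophagy and membrane traffic had 4 of 6 ratios above 0 and a median of 0.37, with mug190 the single one past 2-fold. Over all measured genes 49.2% lay above 0, and the median was −0.01. These 6 genes were grouped with the values known, so no shift of the group can be read from them. The sorting nexin gene mug186, now snx41, had 614.5 with DETA NONOate and 390.0 untreated, and mug179, now atg1802, had 383 with DETA NONOate and 256 untreated. The gene mug185, now epr1, for a receptor that delivers endoplasmic reticulum to autophagy, had a log2 ratio of 0.16. Ratios below 0 belonged to mug66, now atg101, of the complex that starts autophagy, at −0.28, and to mug69, now snd2, of protein targeting to the endoplasmic reticulum, at −0.29.

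In metabolism and transport, mug158 and mug182 were the 2 of 5 genes past 2-fold, both higher. Over all measured genes 2.25% were at least 2-fold higher. The group was made with the values known, so its count cannot be read against that share. The amino acid permease gene meu22 had 43.7 with DETA NONOate and 29.2 untreated, a log2 ratio of 0.58. The aldehyde dehydrogenase gene meu8, now atd3, had a log2 ratio of −0.18, and mug86, for a predicted acetate transporter, had −0.47. These 5 genes thus covered most of the range of ratios.

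None of the genes placed in the nucleus, ubiquitin and translation groups was 2-fold apart. Among 4 nuclear genes, mug183 (now rtt106, a histone chaperone gene), mug154 (now nur1, of the inner nuclear membrane) and mug174 (a coilin relative) had log2 ratios of 0.01, −0.01 and −0.03. The fourth, mug152, now teb1, for a protein that binds telomere-like repeats, had 135 with DETA NONOate and 190.3 untreated, a ratio of −0.49. The 3 ubiquitin genes, the ligase genes mug30 and meu34 and the deubiquitinase gene mug105, lay between −0.02 and 0.08. The 3 translation genes lay between −0.15 for mug71, now dph6, of diphthamide synthesis, and 0.22 for mug178, of the mitochondrial ribosome. The 5 signalling and cytoskeleton genes had a median of 0.12 and ran from −0.89 for mug14 to 0.31 for mug33.

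In the current RefSeq annotation 25 of these genes carry another name. At or near background were 1 of 25 renamed genes and 27 of 108 others. The renamed genes had a median log2 ratio of 0.09, with 2 higher and 0 lower at 2-fold, and the others had 0.05, with 5 higher and 3 lower. By name, 6 of 18 meu genes and 22 of 115 mug genes lay at or near background. The meu genes had a median log2 ratio of −0.06, with meu10 higher and meu6 lower at 2-fold, and the mug genes had 0.06, with 6 higher and 2 lower.

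The 10 mug and meu genes past 2-fold (7.69% of 130, against 4.29% of all measured genes) had 20 protein-coding neighbours. Of these, 12 had a measured probe set assigned to them by the annotation and 0 were 2-fold apart, a count too small to read against the share of all genes. The other neighbours were not looked for among the probe sets without a gene name. The neighbours of mug158, ppr1 and dpm3, had log2 ratios of −0.06 and −0.08. Beside meu10 lay cbf12 at 0.79 and ptc2 at −0.21, beside mug126 lay the autophagy gene atg13 at 0.51, and beside mug182 lay zpr1 at −0.77. The sterol synthesis gene erg25, next to mug177, had 0.82, opposite in sign to mug177. The gene mug14 neighbours abc3, a vacuolar transporter gene that had 3182 with DETA NONOate and 914 untreated.

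There were 6 pairs of neighbouring mug and meu genes. The adjacent mug97 and mug57 had log2 ratios of 0.99 and −0.55. The genes mug66, mug105 and meu29, which lie side by side, had −0.28, −0.02 and −0.27, while mug55 had its bound of −0.39 and mug163 had −0.12. The gene mug86 had 254 with DETA NONOate and 351.5 untreated, while its neighbour mug116 was under background on both arrays. The adjacent mug177 and mug58 had −1.08 and −0.30. Of the pairs with both ratios, mug97 and mug57 alone differed in sign.

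Other genes of mating, meiosis and sporulation, 86 in all and listed by role, were read beside them, and none of these is a mug or meu gene by its annotated name. Of 82 with a probe set, 79 were measured, with a median log2 ratio of 0.09. By ratio, 2 were at least 2-fold higher, 2 at least 2-fold lower and 75 within 2-fold. Among the 75 are mei3, rem1, spo4 and mfr1, which passed the background on 1 array only. Their lower signals were raised to the background, so these genes may lie further apart. Over all measured genes 2.25% were higher and 2.04% lower, so these counts at 2-fold are near the background share. At 1.5-fold, 20 of the 79 were apart in either direction, beside 12.3% of all measured genes, and this difference was not tested. All 4 genes past 2-fold had signals under 100, and 0 of the listed genes were 2-fold apart with 16 added to each signal in place of the floor. At or near background were 25 of the 82. Ratios above 0 were found for 50 and below 0 for 29. The 50 include mfr1, at 8.16 with DETA NONOate and 8.64 untreated. Its ratio is above 0 only because the DETA NONOate signal was raised to the background.

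Among 27 mating and meiotic entry genes 1 was 2-fold apart, and the median was 0.01. It was atf31, for a transcription factor, at 38.3 with DETA NONOate and 19.0 untreated, 2.01-fold higher. The gene ste11, for the regulator that starts sexual development, had 985 with DETA NONOate and 1078 untreated, and mei4, for the forkhead factor of later meiosis, had 24.7 with DETA NONOate and 25.6 untreated. The gene mei2, for the RNA-binding protein that commits cells to meiosis, had 125.5 with DETA NONOate and 242 untreated, a log2 ratio of −0.94. The kinase gene pat1, whose product keeps Mei2 and Ste11 inactive, had 274.5 with DETA NONOate and 420.0 untreated.

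Of 22 measured genes for homologue pairing and recombination, hop1 alone passed 2-fold, at 27.5 with DETA NONOate and 13.6 untreated, 2.02-fold higher. The genes rec7 and rec27 were under background on both arrays, and 11 of 24 lay at or near it. The meiotic cohesin gene rec8 had 29.2 with DETA NONOate and 17.9 untreated. Of 11 measured genes listed under the meiotic divisions, mcp5, now called num1, was 2.48-fold lower, at 22.2 with DETA NONOate and 54.9 untreated. Its product anchors dynein at the cell edge, which is not itself a step of the divisions, so its place in that list is loose. Of 19 genes for the forespore membrane and spore wall, 14 had ratios above 0, with a median of 0.22, and the spore wall gene isp3 was 2.59-fold lower, at 12.1 with DETA NONOate and 31.2 untreated. In the spore wall, meu10 and isp3 therefore stood on opposite sides of 2-fold.

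**Figure D5:**
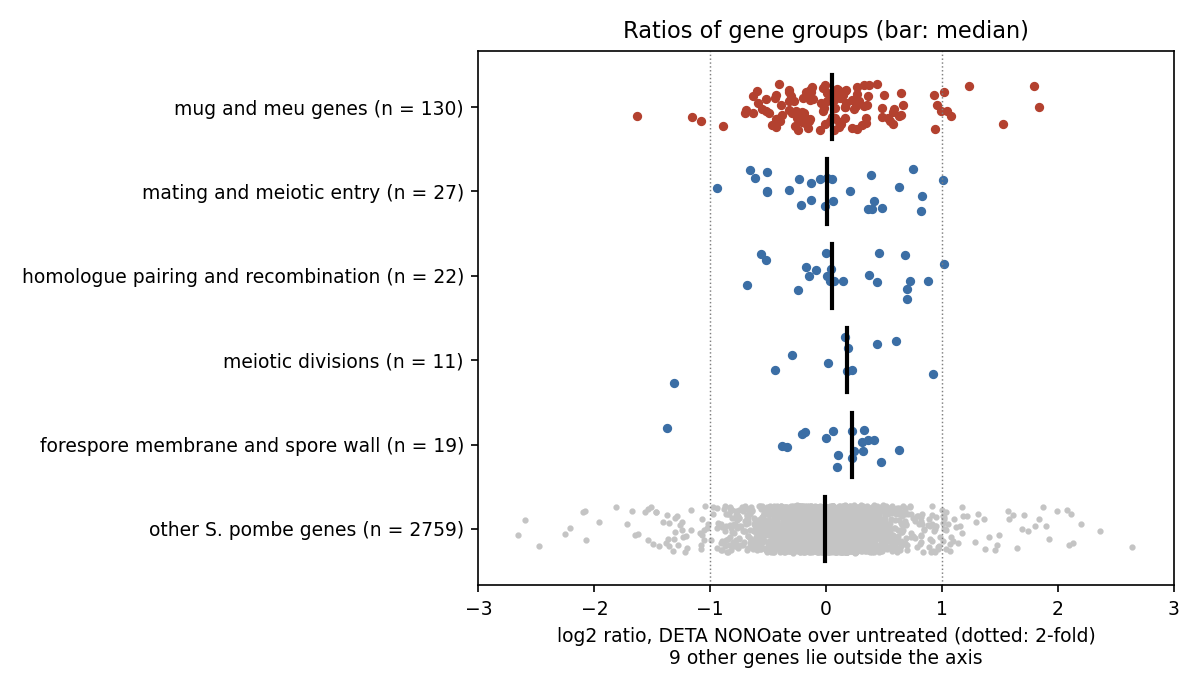
The log2 ratio of DETA NONOate over untreated (horizontal axis) for the measured mug and meu genes (red), 4 groups of other sexual development genes (blue) and all measured S. pombe genes other than mug and meu genes (grey, the blue genes included). Each point is a gene, its height within a row has no meaning, black bars are medians and dotted lines mark 2-fold. Medians lie between −0.01 and 0.22, and 9 grey points fall outside the axis.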

How the data were processed

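The values deposited by the authors are linear intensities, 1 per probe set. The submitters' processing notes name Affymetrix Expression Console, and per the labels' protocols 250 ng of total RNA was labelled with biotin. The summarising algorithm is not given in the sources used here. Because arrays were scaled, a shift common to all transcripts would not show. Probe sets were named through the platform annotation, and current names came from RefSeq (assembly ASM294v3) by gene ID, a table used for names and neighbours only. All 133 genes matched. Probe sets naming several genes, or none, were left out.

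Signals were raised to the background, set at the 95th percentile of budding yeast probe sets, before log2 was taken (Python 3.11.15, pandas 2.3.3). A gene with several probe sets was shown by its brightest, a rule that touched no mug or meu gene. The steps were tested on simulated data. Genes named are those at least 2-fold apart, the 15 highest and 15 lowest ratios, the 6 brightest, those at or near background, neighbours, and examples by role. Those roles were to be taken from product names, which the tables used here do not hold, so they come from general knowledge and were assigned with the values known. The members and lists were chosen with earlier results of these data known. From the meiosis lists, hrs1 was removed, because that name belongs to another locus in the annotation, 4 symbols (mei5, slk1, spo2 and spo13) had no match by name, and slk1 is another name of mug27. Alternatives covered the threshold, the background, the scaling, the choice of probe set and the naming. No sequences were available here.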

Additional observations from a re-analysis of the deposited data

How the results depend on the processing

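With 1 array per group no replicate could be left out, and no paired analysis was possible because no group has a second sample. The threshold changed the counts by definition: of mug and meu genes, 16 were higher and 10 lower at 1.5-fold, and 2 and 1 at 3-fold. Of the 79 measured genes of the meiosis lists, 20 were apart at 1.5-fold and 0 at 3-fold. Over all measured genes 12.3% were apart at 1.5-fold and 1.52% at 3-fold. Without a background floor and with 16 added to each signal, which shrinks the ratios of dim genes, 6 mug and meu genes were higher and 1 lower (mug146), and 0 of the meiosis lists were apart. With genes of 100 or more on an array only, 5 were higher, 0 lower and 0 of the meiosis lists apart, since fewer genes were counted. Under median centring, quantile normalization and removal of a loess trend (span 0.3), 6 to 9 genes were higher, 3 lower, and the median log2 ratio ran from 0.02 to 0.10. The number at or under background on both arrays, 3 at the 95th percentile, was 9 at the 99th and 51 at the highest S. cerevisiae probe set, whose signal was 60.6 with DETA NONOate and 72.6 untreated. Each mug and meu gene has 1 probe set, so the values for the probe set alternatives, counted among the 70 below, were fixed in advance. Adding 16 to both signals cannot reverse a sign. None of the 10 genes past 2-fold changed sign under the scaling, background and probe set alternatives. Of those 70 values, 64 stayed within 0.15 of the reported log2 ratio. The other 6 belonged to dim genes: with 16 added, meu10 had 1.27, mug126 0.63, mug146 −1.04, meu6 −0.79 and mug177 −0.55, and mug177 had −0.69 with the floor at the 99th percentile. Values under 100 and especially near background rest on little signal.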

Other observations

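The rule on names left out meu1-1, which has a suffix and a probe set of its own. Its signal was 31.1 on the DETA NONOate array and 47.7 on the untreated array, within 2-fold and over background on both.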
